A study of Mus musculus with 6 samples.

Results

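Retinoic acid is made from vitamin A and destroyed again inside tissues, and 10 genes of its synthesis, breakdown and reception were read in developing mouse teeth with and without Smad7. They are the breakdown enzymes Cyp26a1, Cyp26b1 and Cyp26c1, the synthesis enzymes Rdh10, Aldh1a1, Aldh1a2 and Aldh1a3, and the receptors Rara, Rarb and Rarg. They were taken by symbol from 23420 symbols in the count tables, and all 10 were found and passed the filter on low counts. The pathway was chosen with differences between these same libraries known, Cyp26a1 being among the genes that DESeq2 called in an earlier look at them, so differences between genotypes in these genes are given as a description, without a p-value. Whole tooth germs of C57BL/6 embryos at E15.5 gave 3 wild-type (WT) and 3 Smad7-/- libraries of total RNA. SMAD7 is an inhibitor of signalling by TGF-beta and BMP receptors, and the labels name no treatment, no allele and no tissue-restricted driver. They do not say whether a library is 1 embryo or a pool, nor whether any 2 libraries share an animal; p-values here reflect no more than the scatter among the 6 libraries, which could be technical.

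Retinol is oxidised to retinaldehyde, mainly by RDH10 in the embryo, and retinaldehyde is oxidised to retinoic acid by the ALDH1A enzymes. Retinoic acid binds RAR receptors, which sit on DNA with RXR partners and switch genes on when the ligand is present, while CYP26 enzymes hydroxylate it and so remove the signal. In many embryonic tissues cells with CYP26 enzymes border on cells with ALDH1A enzymes, which keeps the signal local, and both too much and too little vitamin A are known to disturb tooth development.

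Cyp26a1 and Rarb are textbook targets of retinoic acid as well as parts of its pathway. Their promoters are shown because, of the 13 RefSeq promoters found for 8 of the 10 genes, only these held a paired receptor motif. The motifs searched were AGGTCA, which is the consensus for these receptors, the variant AGTTCA with another base in the middle, and the forms of both that begin with G, namely GGGTCA for the consensus and likewise GGTTCA for the variant. A pair was any of these repeated in the same orientation with 1, 2 or 5 bases between, on both strands. Each sequence holds the 250 bases before the RefSeq start (GRCm38.p6), 5′ to 3′ along the gene's own strand, with the paired motifs in capitals. They lie at chr19:37697558-37697807 on the plus strand and chr14:16575477-16575726 on the minus strand.
Cyp26a1: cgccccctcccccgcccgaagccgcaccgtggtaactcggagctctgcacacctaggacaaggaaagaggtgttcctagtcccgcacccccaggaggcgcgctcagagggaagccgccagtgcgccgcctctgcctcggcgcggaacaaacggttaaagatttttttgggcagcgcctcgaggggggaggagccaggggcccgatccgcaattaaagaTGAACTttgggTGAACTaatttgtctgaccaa
Rarb: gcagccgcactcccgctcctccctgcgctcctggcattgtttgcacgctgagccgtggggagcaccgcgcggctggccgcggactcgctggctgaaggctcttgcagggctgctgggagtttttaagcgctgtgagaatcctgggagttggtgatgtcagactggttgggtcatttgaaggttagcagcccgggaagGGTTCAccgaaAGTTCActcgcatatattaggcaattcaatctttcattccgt
The Cyp26a1 pair, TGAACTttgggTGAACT, lies on the antisense strand from base -32 to base -16, and the Rarb pair, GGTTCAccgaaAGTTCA, on the sense strand from base -53 to base -37. Both have 5 bases between the motifs, which is the classical spacing for RAR with RXR. Such a pair with 5 bases between was found in 0.0974% of 32841 mouse promoters of the same 300 bases, those windows running from 250 bases before to 50 after a start. Pairs with 1 or 2 bases between occurred in 0.222% and 0.268% of them and in no promoter of these genes. A match of letters is a description and not a measured binding site, and the promoters of Aldh1a3 and Rdh10 were not analysed here.

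The libraries held 37591888 to 56575476 counts each. Smad7 itself stood at 21.4, 18.9 and 18 CPM (counts scaled to TMM library sizes) in the WT libraries and at 2.13, 1.43 and 0.712 CPM in the Smad7-/- libraries. Its log2 difference was -3.80 ± 0.33 (SE; edgeR adjusted p = 0.00749), in the direction of the labels. Libraries separated across genotype: WT 1 with Smad7-/- 1 and 2 (called the first set) lay at -32.3 to -15.2 on the first principal component, and WT 2 and 3 with Smad7-/- 3 (the second set) at 15 to 25.2. Xist was seen in WT 1 and Smad7-/- 3, and the Y-linked gene Ddx3y in the other 4 libraries. Within each set the genotypes thus also differed in sex, and either WT or Smad7-/- was a single library. The differences within sets given below therefore cannot tell genotype from sex. All 9 dental epithelium markers (such as Krt5, Epcam and Sp6) and all 8 dental mesenchyme markers (such as Prrx1, Pax9 and Msx1) were present. The summed level of the epithelial markers was 9606 to 10516 CPM in WT and 8170 to 9916 CPM in Smad7-/- libraries, with 8 of 9 lower. The mesenchymal sum was 182 to 238 CPM in WT and 289 to 307 CPM in Smad7-/- libraries, with 8 of 8 higher. In whole tissue, fewer cells of a type and less RNA per cell cannot be told apart.

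Of the 10 genes, 7 had a positive and 3 a negative log2 difference in Smad7-/- libraries, with a median of 0.08, against a median of 0.00 over all 15284 genes tested. The quasi-likelihood test of edgeR called 0 of the 10 at an adjusted p of 0.05, where it called 0.0262% of all genes, and at an unadjusted p under 0.05 it listed 6, 3 higher and 3 lower, against 5.14% of all genes. DESeq2 called 3 of the 10, all of them breakdown enzymes, and 0.400% of all genes it tested. The WT and Smad7-/- ranges did not overlap for 3 of the 10, against 8.88% of all genes. Cyp26b1 and Aldh1a3 lay wholly higher, a pattern in 4.97% of all genes, and Cyp26a1 wholly lower, a pattern in 3.91%. Since the genes were selected on this contrast, nothing is read from these shares.

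**Figure D1:**
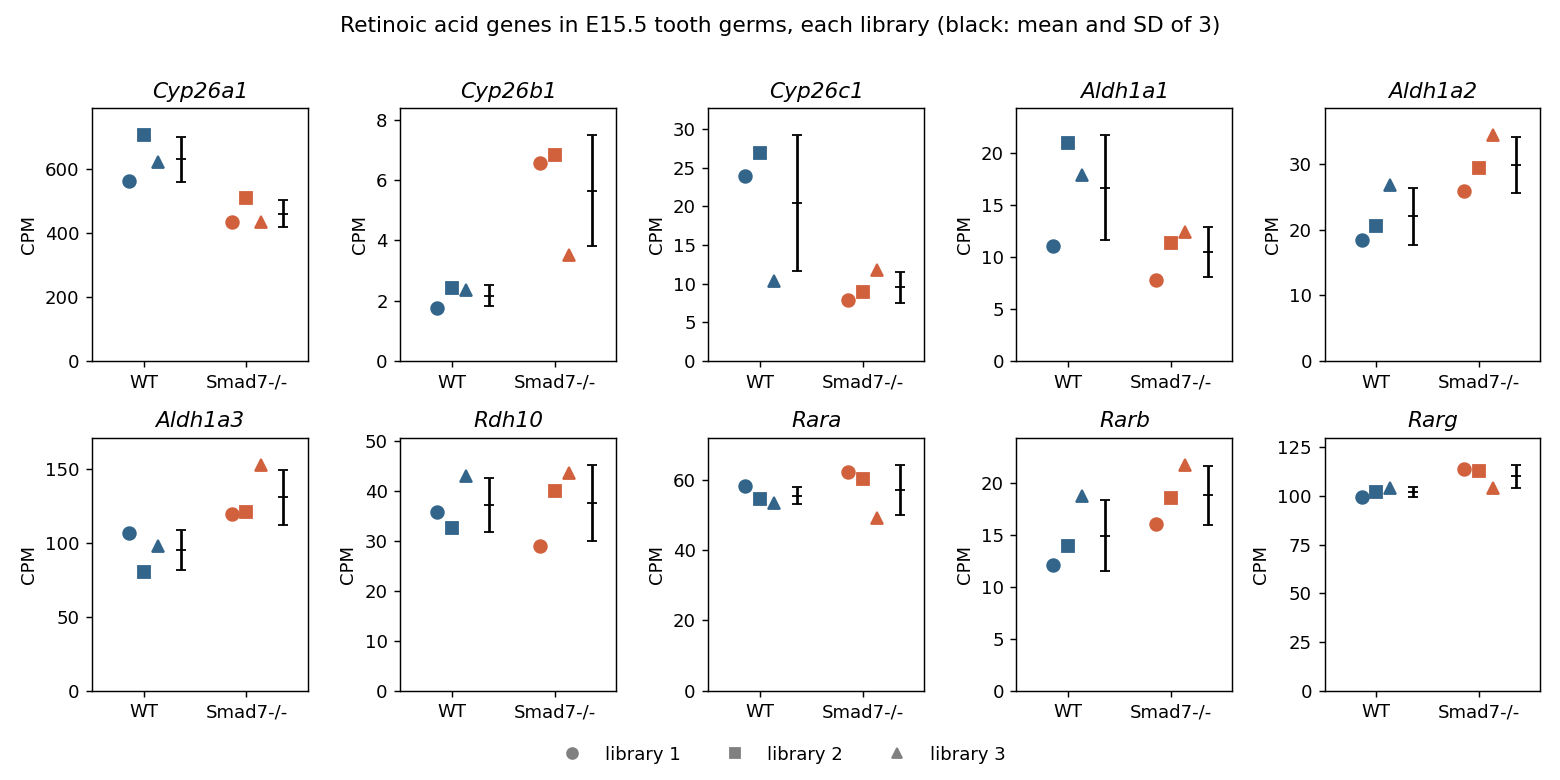
Level of each of the 10 genes in CPM (vertical axes, each from 0) in the 3 WT (blue) and 3 Smad7-/- (orange) libraries; marker shape gives the library number and black bars the mean and SD. Only Cyp26a1 (lower) and Cyp26b1 and Aldh1a3 (higher in Smad7-/-) have groups that do not overlap.

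Among the breakdown enzymes Cyp26a1 and Cyp26c1 had lower means in Smad7-/- libraries and Cyp26b1 a higher one. Cyp26a1, the main retinoic acid hydroxylase of many early embryonic tissues, stood at 563, 706 and 624 CPM in WT and at 436, 510 and 436 CPM in Smad7-/- libraries. Every Smad7-/- library was below every WT library, and the highest Smad7-/- value, 510 CPM, was not far under the lowest WT value, 563 CPM. The means were 631 ± 71.6 and 461 ± 42.8 CPM (SD, n = 3 each), a ratio of 0.730 and a log2 difference of -0.45 ± 0.11 (SE). These values rest on 16388 to 34914 reads per library, so counting error is small beside the spread between libraries. Among libraries of the first set the difference was -0.26, and among those of the second it was -0.61.

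Cyp26b1 removes retinoic acid in limb, skin and gonad of the embryo, and it was scarce here. It stood at 1.76, 2.41 and 2.35 CPM in WT libraries, from 90, 119 and 112 reads. In Smad7-/- libraries it stood at 6.57, 6.83 and 3.52 CPM, from 247, 297 and 203 reads. All 3 Smad7-/- libraries were above all WT libraries, with Smad7-/- 3 nearer to WT than the other two. The means were 2.17 ± 0.359 and 5.64 ± 1.84 CPM, a ratio of 2.60 and a log2 difference of 1.37 ± 0.28. Within the first set the difference was 1.91, and within the second, which holds Smad7-/- 3, it was 0.56.

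Cyp26c1, the third enzyme of the family, was relative to its mean the most variable of the 10 among WT libraries, at 23.9, 26.9 and 10.4 CPM. Its Smad7-/- values were 7.88, 8.88 and 11.8 CPM, so WT 3 lay below Smad7-/- 3 and the groups overlapped. The means were 20.4 ± 8.77 and 9.52 ± 2.04 CPM, a log2 difference of -1.10 ± 0.33. It was -1.41 without WT 3 and -0.85 without WT 2, and within the first and second sets it was -1.51 and -0.50. Cyp26c1 and Cyp26a1 are neighbours on chromosome 19 of mm10, at 37685581-37693398 and 37697798-37701536, both on the plus strand and 4399 bases apart in GENCODE M21. Myof, the nearest gene of the count tables on the other side, ends 197499 bases away. It stood at 76.0 ± 15.1 and 115 ± 26.1 CPM (0.60 ± 0.19, edgeR adjusted p = 0.796). Exoc6, the next gene of the count tables beyond Cyp26c1, was chosen after its values were seen. It stood at 30.0 ± 0.691 and 24.3 ± 1.88 CPM (-0.31 ± 0.10, edgeR adjusted p = 0.796). Cyp26b1 lies on another chromosome, at chr6:84571414-84593908 on the minus strand.

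DESeq2's calls in this family changed when single libraries were left out. Leaving out a library also makes a group smaller, and the part of that was not tested. It called Cyp26a1, Cyp26b1 and Cyp26c1 with all libraries, at 0.400% of all genes called. Of the 10 genes it called only Cyp26b1 without WT 2 (0.0901% of all genes called) or without Smad7-/- 3 (0.672%), and only Cyp26a1 without Smad7-/- 2 (0.154%). It called none of the 10 without Smad7-/- 1 (0.185%). Without WT 1 it called Cyp26a1, Cyp26b1, Aldh1a1 and Aldh1a3 (1.11%), and without WT 3 it called Cyp26b1, Cyp26c1 and Aldh1a2 (0.771%). With the library set as a covariate it called Cyp26a1, Cyp26b1 and Aldh1a2 (0.814%), and with the sex of the library Cyp26a1, Cyp26b1, Cyp26c1 and Aldh1a3 (0.358%). The total number of genes called thus moved between these fits as well, from 17 without WT 2 to 157 without WT 1.

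Of the synthesis enzymes, Rdh10, which makes retinaldehyde, showed no consistent direction. It stood at 35.8, 32.5 and 43.0 CPM in WT and 29.0, 40.0 and 43.6 CPM in Smad7-/- libraries, and the ranges overlapped. The log2 difference was 0.02 ± 0.16, with -0.07 and 0.22 within the first and second sets.

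Aldh1a3, the most abundant of the retinaldehyde dehydrogenases in these tooth germs and an enzyme of developing eye and nose, stood at 107, 80.5 and 98.0 CPM in WT and at 120, 121 and 153 CPM in Smad7-/- libraries. The groups did not overlap, and Smad7-/- 3 was the highest library. The means were 95.1 ± 13.5 and 131 ± 18.5 CPM, a log2 difference of 0.47 ± 0.13. The difference was 0.17 within the first set and 0.78 within the second.

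Aldh1a2, the major retinoic acid source of the early embryo, often in mesenchyme, stood at 18.4, 20.6 and 26.8 CPM in WT. In Smad7-/- libraries it stood at 25.8, 29.4 and 34.3 CPM. Only WT 3 reached into the Smad7-/- range. The means were 22 ± 4.36 and 29.8 ± 4.27 CPM, a log2 difference of 0.44 ± 0.16, with 0.58 and 0.54 within the first and second sets.

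Aldh1a1, which oxidises retinaldehyde among other aldehydes, stood at 11.1, 21 and 17.9 CPM in WT and at 7.77, 11.4 and 12.4 CPM in Smad7-/- libraries. It was the one synthesis enzyme with a lower mean, at 16.7 ± 5.04 against 10.5 ± 2.42 CPM, and WT 1 lay within the Smad7-/- range. The log2 difference was -0.66 ± 0.25, with -0.24 and -0.65 within the first and second sets and -0.44 with the library set as a covariate. Some reads of Aldh1a1 can also match its close relative Aldh1a7, so the level of Aldh1a1 alone is uncertain. Aldh1a7, chosen after its values were seen, stood at 13.2 ± 5.33 and 7.73 ± 1.91 CPM (-0.77 ± 0.29, edgeR adjusted p = 0.877).

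**Figure D2:**
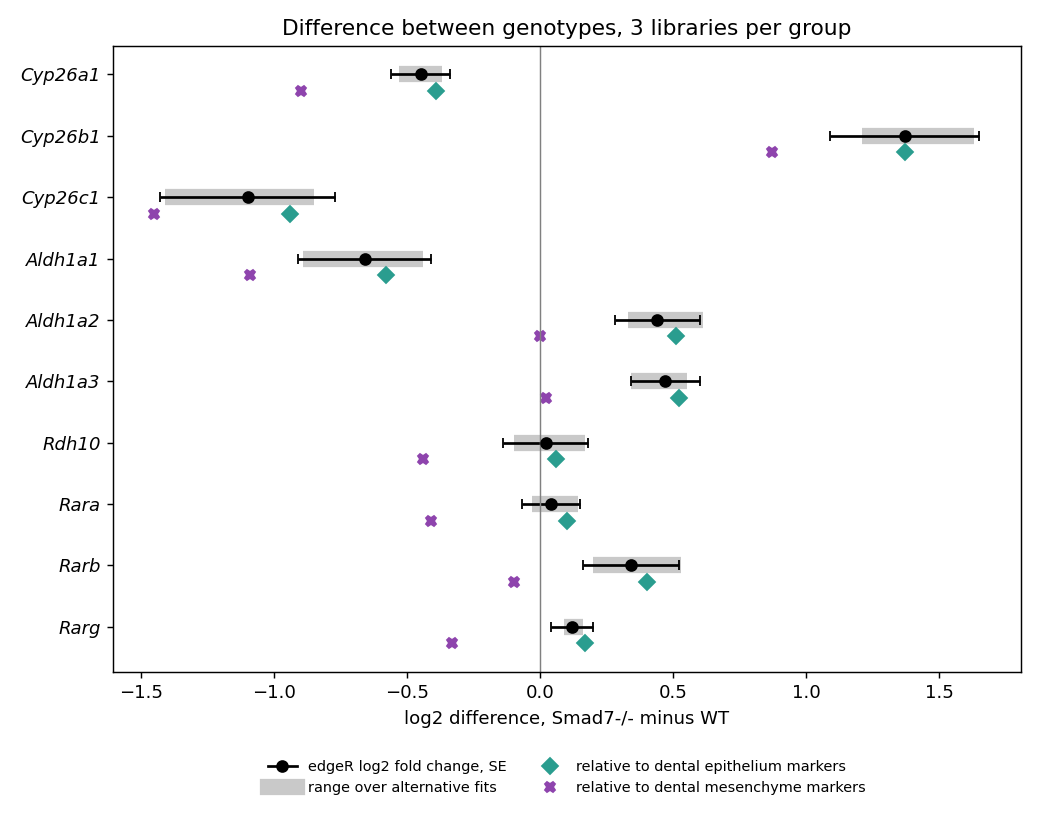
Log2 difference between Smad7-/- and WT (horizontal axis, 0 marked) for each of the 10 genes: black points are the edgeR values with SE, grey bars the range over the alternative fits, diamonds and crosses the differences relative to epithelial or mesenchymal markers. Diamonds and crosses come from mean log2 CPM and not from the edgeR fit. Relative to the mesenchymal markers, a scale that lowers every gene by the same amount, Aldh1a2 and Aldh1a3 come to 0.00 and 0.02 and Cyp26a1 to -0.90.

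The synthesis genes are scattered over the genome, in mm10 positions of GENCODE M21. Rdh10 is at chr1:16105774-16133734 and Aldh1a2 at chr9:71215789-71296243, both on the plus strand. Aldh1a3 is at chr7:66390890-66427517 on the minus strand. Aldh1a1, at chr19:20492715-20643465 on the plus strand, shares a chromosome with Cyp26a1 and Cyp26c1.

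Mesenchymal markers moved with genotype, so the differences were also taken relative to each library's mean log2 level of either marker list. Relative to the 9 epithelial markers, Cyp26a1 differed by -0.39, Cyp26b1 by 1.37, Cyp26c1 by -0.94, Aldh1a1 by -0.58, Aldh1a2 by 0.51 and Aldh1a3 by 0.52. Relative to the 8 mesenchymal markers the same genes differed by -0.90, 0.87, -1.45, -1.09, 0.00 and 0.02. The sign turned on that scale for the other 4 genes, to -0.44 for Rdh10, -0.41 for Rara, -0.10 for Rarb and -0.33 for Rarg, where the epithelial scale gave 0.06, 0.10, 0.40 and 0.17. Each scale subtracts the mean difference of its markers (-0.06 epithelial and 0.45 mesenchymal) from every gene's difference in mean log2 CPM. That difference, also used within sets, is not the edgeR log2 difference given for each gene, so the values need not match exactly. Whether a sign turned therefore follows from the sign and size of a gene's own log2 difference alone. The direction of Cyp26a1, Cyp26b1, Cyp26c1 and Aldh1a1 was the same on each scale. The higher values of Aldh1a2 and Aldh1a3 were about the size of the mean difference of the mesenchymal markers. Macrophage markers (8 of 8 higher, summed level 96.9 to 134 CPM in WT and 168 to 181 CPM in Smad7-/- libraries) moved the same way, and their part in these differences was not tested. Markers of red blood cells moved the other way, 5 of 5 tested being lower, with sums of 262 to 461 and 204 to 254 CPM. The part of red blood cells in the lower genes was likewise not tested. Hba-a1, Hba-a2, Hbb-b1 and Hbb-b2 are listed at 0, and whether this is absence of the transcripts was not tested.

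Per kilobase of merged exon (RPKM), which allows levels to be compared between genes, the sums of the 2 enzyme families lay apart between genotypes in opposite directions. The 3 Cyp26 genes summed to 298, 372 and 321 RPKM in WT and to 226, 264 and 227 RPKM in Smad7-/- libraries. The 3 Aldh1a genes summed to 33.5, 30.8 and 36.7 RPKM in WT and to 39.0, 41.5 and 50.7 RPKM in Smad7-/- libraries. Neither sum overlapped between genotypes, and 8.88% of all single genes did not overlap either. The ratio of the Cyp26 to the Aldh1a sum, taken within each library, was 8.89, 12.1 and 8.74 in WT and 5.78, 6.35 and 4.48 in Smad7-/- libraries. Its means were 9.90 ± 1.88 and 5.54 ± 0.962, and the Smad7-/- mean was 0.559 of the WT mean. These sums describe transcripts, not enzyme activity, and they carry the choice of genes with them. In WT Cyp26a1 made up 96.4% of the Cyp26 sum and Aldh1a3 61.2% of the Aldh1a sum, so the sums largely restate genes selected on this contrast. Relative to the mesenchymal markers Aldh1a2 and Aldh1a3 differed by 0.00 and 0.02, and Cyp26a1 by -0.90. No shift in the balance of breakdown and synthesis is read from the ratio.

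**Figure D3:**
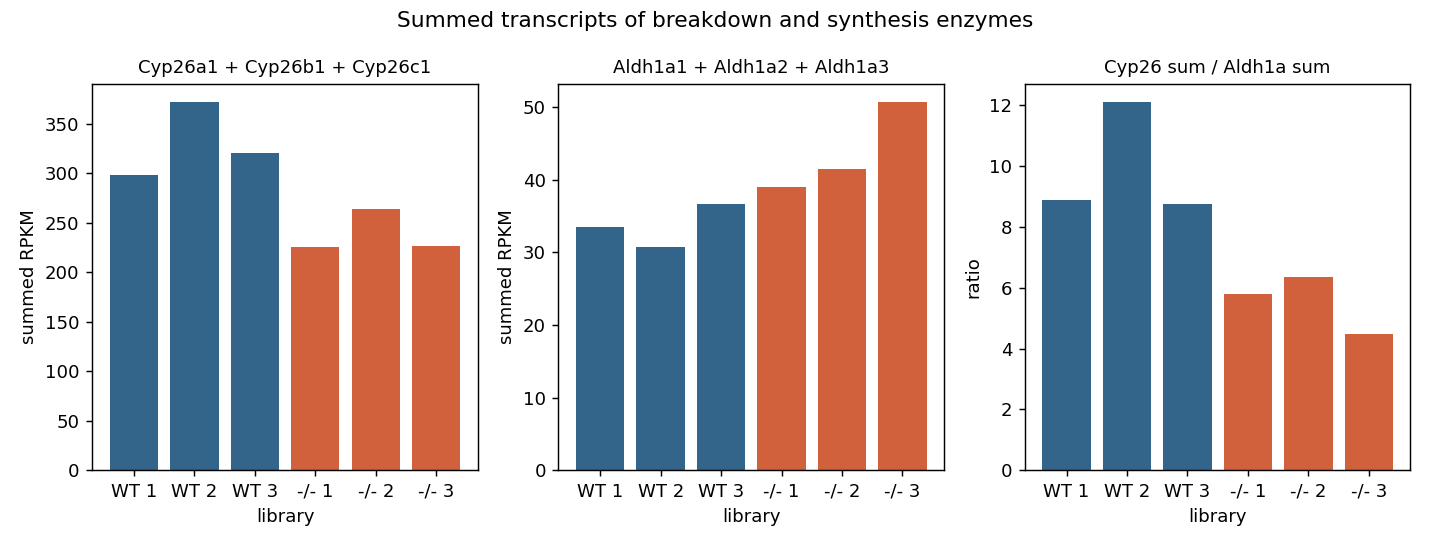
Summed level of the 3 Cyp26 genes and of the 3 Aldh1a genes (RPKM), and the ratio of these sums, in each WT (blue) and Smad7-/- (orange, marked -/-) library; all axes start at 0. The ratio runs from 8.74 to 12.1 in WT and from 4.48 to 6.35 in Smad7-/- libraries. The sums rest on genes selected on this contrast.

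Within the breakdown family Cyp26a1 made up 96.4% ± 1.45 of the Cyp26 sum in WT and 97.3% ± 0.459 in Smad7-/- libraries (SD, n = 3). The higher Cyp26b1 level therefore added little to the sum, its share being 0.122% ± 0.0133 and 0.439% ± 0.133. Among the Aldh1a genes, Aldh1a3 held 61.2% ± 6.86 and 65.0% ± 1.84, and Aldh1a2 held 28.7% ± 4.10 and 30.1% ± 1.09. The share of Aldh1a1 was 6.73, 13.8 and 9.88% in WT and 4.03, 5.56 and 4.94% in Smad7-/- libraries. That share did not overlap between genotypes, although the CPM values of Aldh1a1 did.

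The receptors had log2 differences of 0.04 to 0.34 on the CPM scale. All 3 were negative relative to the mesenchymal markers, a scale that lowers every gene by the same amount. Rarg, the receptor typical of embryonic epithelium and skin, stood at 99.4, 102 and 104 CPM in WT and at 114, 113 and 104 CPM in Smad7-/- libraries, a log2 difference of 0.12 ± 0.08. Its groups met at their edges, at WT 3 and Smad7-/- 3. Rara, the widely expressed receptor, stood at 58.2, 54.7 and 53.5 CPM and at 62.3, 60.2 and 49.1 CPM, a log2 difference of 0.04 ± 0.11 with Smad7-/- 3 the lowest of all libraries. Rarb, the receptor that retinoic acid itself turns on through the element shown above, stood at 12.1, 13.9 and 18.7 CPM in WT. In Smad7-/- libraries it stood at 16, 18.5 and 21.7 CPM, and the ranges overlapped. The Rarb means were 14.9 ± 3.40 and 18.8 ± 2.84 CPM, a log2 difference of 0.34 ± 0.18. Rarb shares 1793 exon bases with Top2b on the opposite strand in GENCODE M21, and the library kit does not record strand. Reads there may belong to either gene or be left uncounted, so the Rarb level may be too high or too low. Rara is at chr11:98927818-98974942 on the plus strand, Rarb at chr14:16430839-16819156 and Rarg at chr15:102234938-102257517, both on the minus strand. Top2b stood at 356 ± 13.6 and 340 ± 28.8 CPM (-0.07 ± 0.09). Within the first and second sets the differences were 0.19 and 0.01 for Rarg, 0.07 and -0.14 for Rara, and 0.51 and 0.43 for Rarb. The 3 receptors summed to 39.4 ± 0.750 and 42.6 ± 2.50 RPKM, and Rarg held 60.6% ± 0.656 and 60.9% ± 0.354 of that sum.

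Cyp26a1 and Rarb, which share the promoter element, had log2 differences of -0.45 and 0.34 on the CPM scale, and of -0.90 and -0.10 relative to the mesenchymal markers. Of the 29 other genes with a motif pair at this spacing, 7 were in the count tables and 5 were tested. edgeR called 0 of these 5, against 0.0262% of all genes. At an unadjusted p under 0.05 edgeR listed 1, the platelet gene Ppbp, against 5.14% of all genes. DESeq2 called 1, again Ppbp, against 0.400% of all genes. Ppbp was chosen after its values were seen. All 5 had negative log2 differences, with a median of -0.48, where 7786 of all 15284 genes were negative. Group ranges overlapped for all 5, where those of 8.88% of all genes did not. Ppbp, Prokr2, Syndig1 and Tnfsf13b were scarce, at WT means of 2.81, 2.54, 0.935 and 0.377 CPM. Blvrb, at 23.7 CPM in WT, differed by -0.05 ± 0.13.

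By level, Cyp26a1 stood far above the other genes. In WT it measured 318 ± 36.1 RPKM and ranked 96 of 14349 tested genes with a length, so that 99.3% of them lay below it. Rarg followed at 23.9 ± 0.585, Aldh1a3 at 20.6 ± 2.91, Rara at 12.7 ± 0.566, Cyp26c1 at 11.7 ± 5.02, Aldh1a2 at 9.70 ± 1.93 and Rdh10 at 8.92 ± 1.30 RPKM. Aldh1a1 at 3.38 ± 1.02, Rarb at 2.83 ± 0.646 and Cyp26b1 at 0.405 ± 0.0671 RPKM were the lowest. Neighbours in this order whose library ranges overlapped, and which therefore did not differ beyond their spread, were Rara with Cyp26c1, Cyp26c1 with Aldh1a2, Aldh1a2 with Rdh10, and Aldh1a1 with Rarb.

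In Smad7-/- libraries Cyp26a1 again led, at 232 ± 21.6 RPKM. Aldh1a3 at 28.4 ± 4.02 RPKM and Rarg at 25.9 ± 1.38 RPKM overlapped. Aldh1a2 at 13.2 ± 1.88 and Rara at 13.1 ± 1.62 RPKM overlapped as well, and Rdh10 followed at 9.03 ± 1.83 RPKM. Cyp26c1 at 5.45 ± 1.17, Rarb at 3.56 ± 0.540, Aldh1a1 at 2.13 ± 0.491 and Cyp26b1 at 1.05 ± 0.344 RPKM closed the order, without overlap between neighbours on this length. With the length of the longest transcript Rara stood above Aldh1a2 and Rarb above Cyp26c1, and Rarb with Cyp26c1 and Cyp26c1 with Aldh1a1 then overlapped. Whole tooth germs mix epithelium and mesenchyme, so a low level can be a high level in few cells.

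**Figure D4:**
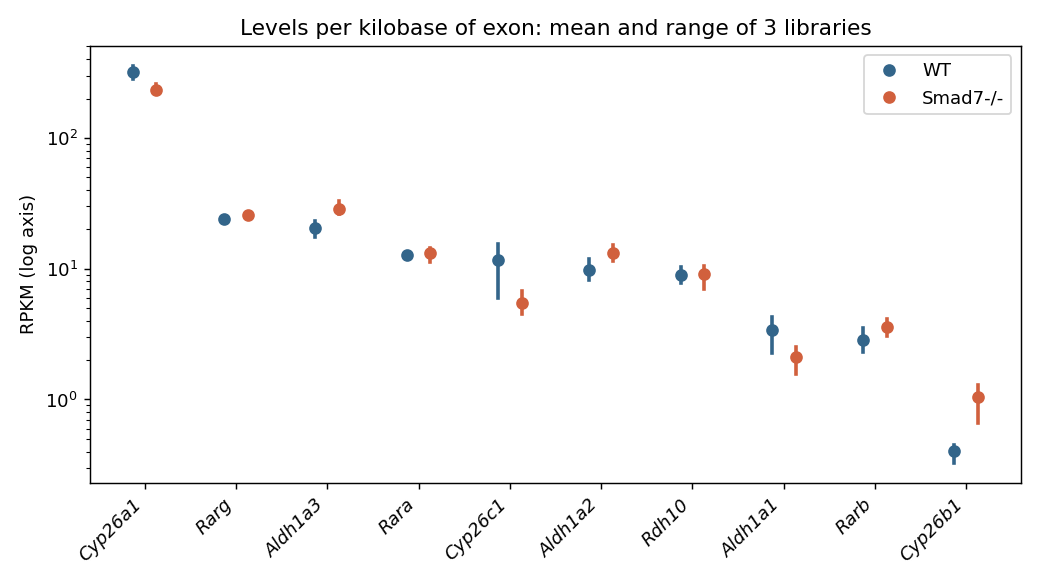
Level of each gene in RPKM on a log axis, points for the mean and lines for the range of the 3 libraries of each genotype, ordered by the WT mean. Cyp26a1 lies far above the rest at 318 RPKM in WT and 232 RPKM in Smad7-/- libraries, and Cyp26b1 is lowest at 0.405 and 1.05 RPKM.

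The wider pathway was read through 65 further genes in 3 lists, of which 49 passed the filter and were tested. edgeR called 0 of the 49 at an adjusted p of 0.05, with 2 at an unadjusted p under 0.05, and DESeq2 called 0, against shares of 0.0262%, 5.14% and 0.400% of all genes. Of the 49, 25 had positive and 24 negative log2 differences, with a median of 0.00, and the group ranges did not overlap for 3 of 49, against 8.88% of all genes. These counts are near the shares over all genes.

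Among 33 genes of vitamin A metabolism and transport, 25 were tested, 11 with positive and 14 with negative differences (median -0.05). Crabp2, which hands retinoic acid to its receptors, stood at 19.9 ± 2.72 and 14.7 ± 4.11 CPM (-0.43 ± 0.20, edgeR adjusted p = 0.967). Crabp1, which binds retinoic acid in the cytoplasm, stood at 22.7 ± 5.72 and 26.0 ± 3.44 CPM (0.20 ± 0.18). Fabp5, a fatty acid carrier that also binds retinoic acid, stood at 330 ± 67.0 and 300 ± 65.6 CPM. Dhrs3, which turns retinaldehyde back to retinol and is itself induced by retinoic acid, stood at 30.2 ± 5.44 and 29.1 ± 1.38 CPM (-0.05 ± 0.14). Stra6, the membrane channel for retinol, and Rbp4, the blood carrier of retinol, were scarce, at 4.38 ± 1.27 and 4.65 ± 0.808 CPM and at 1.22 ± 0.581 and 0.727 ± 0.666 CPM. Adh5, Rdh11, Rdh13 and Rdh14, other alcohol or retinal-reducing dehydrogenases, had differences from -0.06 to 0.10. Sdr16c5, a retinol dehydrogenase chosen after its values were seen, stood at 0.293, 0.991 and 1.61 CPM in WT and at 0.213, 0.253 and 0.278 CPM in Smad7-/- libraries (-1.94 ± 0.58, edgeR adjusted p = 0.705).

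All 18 receptor partners and cofactors were tested, 10 with positive and 8 with negative differences (median 0.03). The RXR partners Rxra and Rxrb stood at 193 ± 28.9 and 205 ± 24.8 CPM and at 68.3 ± 2.09 and 68.2 ± 3.17 CPM, with log2 differences of 0.08 ± 0.13 and 0.00 ± 0.08. Rxrg was scarce, at 2.33 ± 0.854 and 2.46 ± 0.467 CPM. The corepressor Ncor1, the coactivators Ncoa2 and Ep300 and the methyltransferase Prmt1 had differences from -0.09 to 0.12.

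Of 20 known retinoic acid targets 12 were tested, 6 with positive and 6 with negative differences (median -0.02). Beside Crabp2, Dhrs3 and Stra6, which stand in the metabolism list too, Bhlhe40 stood at 34.1 ± 0.552 and 34.2 ± 1.87 CPM. Nrip1, a corepressor that retinoic acid induces, stood at 33.3 ± 7.96 and 30.0 ± 5.93 CPM, and Tgm2 at 25.5 ± 5.58 and 24.1 ± 10.6 CPM. The 8 targets below the filter included Hoxb1, Hoxa4, Hoxb4, Hoxd4, Cdx1 and Stra8. Hoxb1 and Cdx1 had no count in any library, which allows up to 0.0799 CPM in the shallowest library (3 counts, counting error only).

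**Figure D5:**
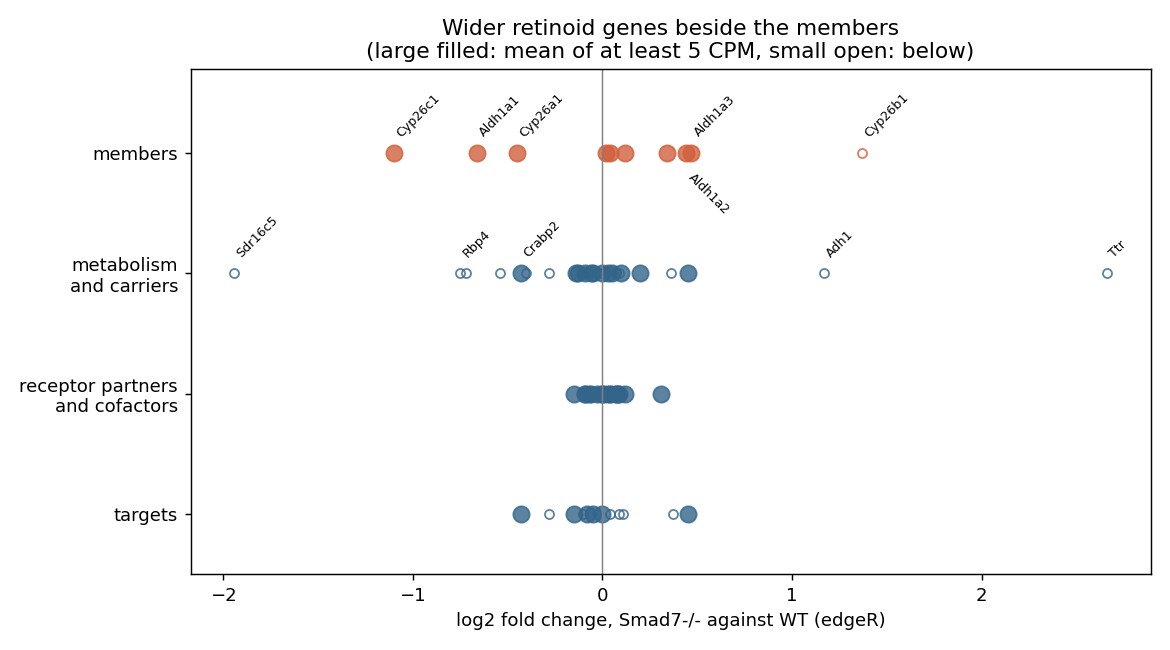
Log2 difference between Smad7-/- and WT (horizontal axis, 0 marked) for the 10 genes (orange, top) and the tested genes of the 3 wider lists (blue); large filled points have a mean of at least 5 CPM. The 18 receptor partners and cofactors lie between -0.15 and 0.31, and the widest points of the metabolism list are scarce genes such as Sdr16c5 at -1.94.

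Genes averaging 5 CPM or more were compared with Cyp26a1, leaving out symbols of Gm plus a number and of the LOC, Rik and -ps kinds. Of these 10842 genes, the 3 whose log2 CPM followed Cyp26a1 most closely over the 6 libraries were Fam83g (Pearson's r = 0.993), Btg2 (r = 0.991) and Ccdc92 (r = 0.991). These are the top of many comparisons over 6 points that share depth, genotype and the split of the libraries, and are given as a description with no p-value. Fam83g stood at 57.8 ± 3.40 and 48.0 ± 2.93 CPM (-0.27 ± 0.09, edgeR adjusted p = 0.827), Btg2, an antiproliferative gene, at 33.9 ± 2.37 and 28.7 ± 1.74 CPM (-0.24 ± 0.10, edgeR adjusted p = 0.915), and Ccdc92 at 15.9 ± 1.58 and 12.1 ± 1.28 CPM (-0.39 ± 0.14, edgeR adjusted p = 0.827).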

How the data were processed

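RNA of 3 WT and 3 Smad7-/- tooth germ libraries was prepared with an unstranded TruSeq kit, per the labels' protocols. The authors used HISAT2, featureCounts and DESeq2 with the mm10 build, without stated versions, per the submitters' processing notes. The values the authors deposited are whole-number read counts for each symbol, not normalized; 27 of 23420 symbols had become dates.

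Low counts were removed by filterByExpr with a count minimum of 10 and a total of at least 15, and TMM set the scaling. The test was edgeR's robust quasi-likelihood fit (edgeR 4.0.16, R 4.3.3), with Benjamini-Hochberg adjusted p-values over the 15284 genes left and a threshold of 0.05. CPM and RPKM use TMM library sizes and, for RPKM, merged exons of GENCODE M21. SE is the log2 difference divided by the root of F, and the median SE was 0.14. Log2 CPM had a prior count of 2, and the relative-to-marker and within-set values are differences in its mean. DESeq2 1.42.0, limma-voom in limma 3.58.1, other scaling and filters, a non-robust fit, covariates, a replicate block and leaving out each library were alternatives. The relative-to-marker and within-set values, and DESeq2 with covariates or without a library, were added after seeing the data. The fit was tested on simulated data, and figures used matplotlib 3.10.9.

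The 10 genes, the lists, the markers and the alternatives were chosen with earlier results of these data known. Named wider genes are those past the threshold, the 6 most abundant of each list, and Rbp4, Crabp1, Crabp2, Stra6, Dhrs3, Rxra, Rxrb and Rxrg. Also named are genes overlapping exons of the 10, neighbours of Cyp26a1, and the 3 genes most like it. Some genes that the rule selects are not reported here. Stra6l and Bco1 were found under older symbols. Marker lists for dental epithelium, dental mesenchyme, oral epithelium, red blood cells, macrophages, muscle, endothelium, Schwann cells, neurons and cartilage were read for each library. No molecular identifiers were used, so reads can be copies of 1 molecule.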

Additional observations from a re-analysis of the deposited data

How the results depend on the processing

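edgeR called 4 genes in all and 0 of the 10. DESeq2 called 60 and a filter on a mean of at least 5 CPM left 2, while leaving out each library in turn gave 1 to 7. None of the edgeR and limma-voom alternatives called any of the 10, Cyp26b1 falling below the 5 CPM filter. DESeq2 called 3 of the 10, 3 with the library set as a covariate (Cyp26a1, Cyp26b1 and Aldh1a2) and 4 with the sex of the library (Cyp26a1, Cyp26b1, Cyp26c1 and Aldh1a3), and 0 to 4 when each library was left out. Over these DESeq2 fits the share of all genes called ran from 0.0901% to 1.11%, so the counts are not directly comparable. All alternatives run on the wider genes called 0 of them, with smallest adjusted p-values from 0.197 to 1.00. Libraries of the same number had residual correlations of 0.169, -0.0339 and 0.0927, and with the replicate number as a replicate block 4 genes were called, 0 of them among the 10. Over the alternatives listed first in the processing account the sign held for 8 of the 10; Rdh10 kept it in 12 of 16 and Rara in 14 of 16. Cyp26a1 ranged from -0.53 to -0.37, Cyp26b1 from 1.21 to 1.63, Cyp26c1 from -1.41 to -0.85 and Aldh1a3 from 0.34 to 0.55. With the length of the longest transcript 2 genes changed place in the WT order, Aldh1a2 and Rdh10, and in the Smad7-/- order Rara with Aldh1a2 and Rarb with Cyp26c1 changed places. The cause of these changes was not tested. Depth limits Cyp26b1 most, at 90 to 297 reads.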

Other observations

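Other marker lists gave these values. Skeletal muscle markers were lower in 7 of 8 tested, with sums of 9.54 to 11.5 CPM in WT and 6.87 to 8.97 CPM in Smad7-/- libraries. Endothelial markers were higher in 6 of 6, with sums of 226 to 343 and 316 to 359 CPM. Keratinised oral epithelium markers summed to 27.1 to 29.6 and 23.1 to 28.1 CPM, Schwann cell markers to 24.3 to 29.6 and 24.2 to 30.4 CPM, neuronal markers to 321 to 361 and 278 to 348 CPM, and cartilage markers to 83.1 to 93.3 and 85.4 to 95.8 CPM, with Matn1 listed at 0. Schwann cell markers were higher in 4 of 5 and lower in 1. Their mean log2 level differed by 0.35 and did not overlap between genotypes, although the sums did. Sox10 and Foxd3 in that list were below 1 CPM. Tested markers were higher in 2 of 5 for keratinised epithelium, 1 of 3 for neurons and 3 of 4 for cartilage. edgeR called 0 genes of any marker list at an adjusted p of 0.05.

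The retinol and thyroid hormone carrier Ttr, chosen after its values were seen, stood at 0.195, 1.03 and 0.105 CPM in WT and at 0.532, 7.84 and 0.104 CPM in Smad7-/- libraries. Its log2 difference of 2.66 ± 1.68 (edgeR adjusted p = 0.999) rests on 1 library, Smad7-/- 2. Adh1, an alcohol dehydrogenase that can oxidise retinol and was likewise chosen after its values were seen, stood at 0.332, 0.0809 and 0.293 CPM in WT and at 0.532, 0.736 and 0.347 CPM in Smad7-/- libraries (1.17 ± 0.54, edgeR adjusted p = 0.967).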
